A study of Mus musculus with 20 samples.

Results

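Cartilage and chondrocyte genes were examined in bulk RNA sequencing of mouse knee joints. The members were 40 listed genes for matrix proteins other than collagens, chondrocyte transcription factors, growth plate signals and sulfation enzymes, chosen by gene symbol with no proteases among them. Of the 40 genes, 39 had a row in the deposited table of 14793 genes, and no row carried the symbol Mia. The study compared mesenchymal stromal cells (MSC) with and without prior activation as an injected treatment for osteoarthritis of the knee. All 20 mice were male C57BL/6Nci mice, operated on the right knee at 12 weeks of age. The surgery, destabilization of the medial meniscus (DMM), cuts the ligament that holds the meniscus and leads to osteoarthritis. Each of 4 groups had 5 joints from separate mice. Control joints received needle insertion alone. MSC joints received unactivated cells at weeks 3 and 5 after surgery. In the TLR3-MSC and STING-MSC groups the same cells were first exposed for 2 h to an agonist, at 10 µg per mL, of Toll-like receptor 3 or of Stimulator of Interferon Genes, both innate immune sensors. The cells were grown from pooled adipose tissue of age-matched male mice, so they represent 1 donor pool. The methods place tissue collection at 8 weeks after surgery, whereas the results place it 24 h after an injection, and the interval behind these libraries was therefore not settled. All groups carried the DMM injury, so no comparison here is with an uninjured joint.

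Articular cartilage is built by chondrocytes, which secrete a hydrated matrix of aggrecan and link protein held in a collagen mesh. Adaptor proteins such as COMP and the matrilins tie these networks together, lubricin from the surface layer reduces friction, and SOX9 with SOX5 and SOX6 drives the matrix genes. Growth plate chondrocytes of the same bones also use Indian hedgehog and FGFR3 signals to pace their maturation, and several members are made by tendon, ligament, meniscus or synovium as well as by cartilage.

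Joints were taken whole, with cartilage, synovium, capsule and adjacent bone together. A lower value can therefore mean fewer cartilage cells in the sample, less of another tissue that makes the gene, or less RNA per cell. These cannot be told apart. Values are the authors' normalized counts per gene, and the reads recovered from them summed to between 27955496 and 52529973 per joint. All 8 defining chondrocyte markers checked, Col2a1, Acan, Sox9, Hapln1, Matn3, Cnmd, Col9a1 and Col11a2, were above 0 in every joint. Their summed normalized count nevertheless ran from 8308 to 127332 over the 20 joints. MSC joint 5 and STING-MSC joint 5 stood apart in detection, with 296 and 97 genes at 0, of which 239 and 47 were at 0 in no other joint. Counts of members are given below with and without these 2 joints. The labels name no batch.

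Per kilobase of annotated exon, Prg4, which encodes lubricin, had the highest level of the 39 members at 54631 normalized counts per kilobase. Comp, the pentameric adaptor of collagen fibrils, followed at 7782 and Chad, a leucine-rich chondrocyte adhesion protein, at 6958. Mgp, an inhibitor of calcification, stood at 4488, Cytl1, a small secreted protein, at 3993 and Clec3a, a cartilage lectin, at 3199. Acan, the aggrecan core protein, reached 618 and its link protein gene Hapln1 198. The lowest levels per kilobase were those of Crtac1 at 6.78, the link protein gene Hapln3 at 5.15 and the matrilin gene Matn1 at 3.86. Matn1 had between 0 and 64 reads per joint, so its values carry large counting error. The rows of Prg4, Chad, Chadl and Crtac1 overlap other annotated genes, namely Tpr, Acsf2, L3mbtl2 and Golga7b, and the sources used here do not say whether strand was used in counting, so reads may be shared with those genes.

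Joints of the same group differed widely in these genes. The standard deviation between joints of a group, on the log2 scale, had a median of 0.83 over the 39 members and 0.26 over all genes tested. It was above the all-gene median for 36 of 39 members and in the top 10% of all genes for 23. Matn3, a matrilin of growth plate and articular cartilage, was the most variable at 1.75, followed by Matn1 at 1.41 and Panx3, a channel of maturing chondrocytes and osteoblasts, at 1.28. Slc26a2, the sulfate transporter, was the least variable at 0.20, and Sox6 and Ptch1, the hedgehog receptor, stood at 0.24 and 0.25. For the median member, the 95% interval of a difference between 2 groups therefore reached 1.03 to either side on the log2 scale, against 0.34 for the median gene of the table. A change under 2-fold was thus within the interval for the median member.

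**Figure D1:**
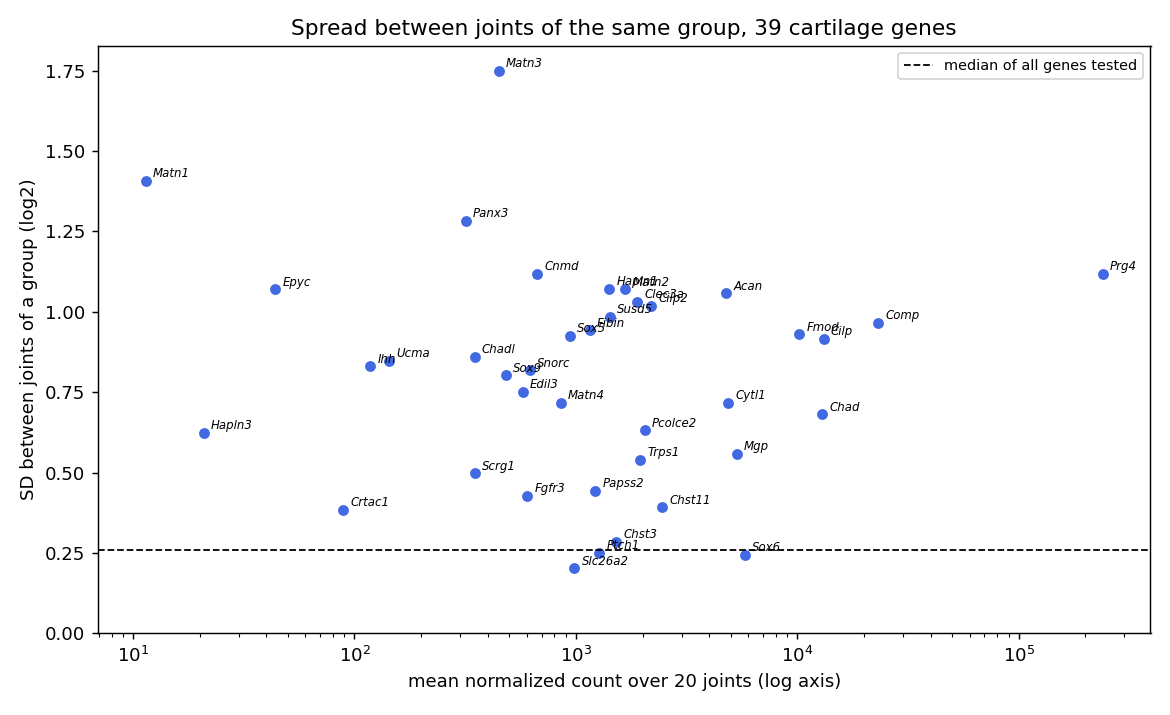
Standard deviation between joints of the same group on the log2 scale (y axis) against mean normalized count over 20 joints (x axis, log scale), 1 point per gene; the dashed line is the median of all genes tested, 0.26. Points run from 0.20 (Slc26a2) to 1.75 (Matn3), and 36 of 39 lie above the line.

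The comparison of STING-MSC joints with needle control joints held most of the differences. In it, 6 of 39 members were lower at an unadjusted limma p of at most 0.05, and none was higher. The 6 were Matn2, Fmod, Edil3, Susd5, Mgp and Ptch1. They varied together between joints, so they are not 6 independent results. With group means subtracted, r between them ran from 0.456 for Fmod and Ptch1 to 0.953 for Matn2 and Fmod. The share of members called was 15.4%, against 12.2% of all genes in either direction and 5.69% in the lower direction. With a 2-fold criterion added, 4 members were lower (Matn2, Fmod, Edil3 and Susd5), 10.3% of the members against 1.78% of all genes. These 2 shares are not like for like. For the median member, a p of at most 0.05 already needs a log2 fold change of about 1.03, against 0.34 for the median gene. The 2-fold criterion thus removes few passing members but many other genes. No member passed an FDR of 0.05, adjusted over all 14793 genes, by limma, by edgeR or by DESeq2, and at that FDR limma called 0%, edgeR 0% and DESeq2 0.575% of all genes. The lowest FDR by limma was 0.291, for Edil3. At the unadjusted threshold edgeR called 7 members, all lower (7.71% of all genes), and DESeq2 called 10 lower (8.02%) and 1 higher, Crtac1 (7.14%).

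Edil3 encodes a secreted glycoprotein that binds integrins and phosphatidylserine. Its normalized counts were 362, 680.2, 1269, 1253 and 563 in control joints 1 to 5 and 266, 241, 328, 361 and 197 in STING-MSC joints 1 to 5. Every STING-MSC joint was below every control joint (log2 fold change -1.44, SE 0.44, unadjusted p = 0.00416, FDR = 0.291 by limma; two-sided exact permutation p = 0.00794 with 5 joints against 5, the smallest that design allows). The separation was a near tie, with 361.07 in STING-MSC joint 4 and 362.03 in control joint 1. In these 2 joints 1 read is worth 1.25 and 1.06 normalized counts. MSC joints 1 to 5 had 411, 1361, 379, 184 and 473 and TLR3-MSC joints 1 to 5 had 610.2, 685, 532, 290 and 1061, both overlapping the control joints. Edil3 was the only member past p of 0.05 in the test of any difference among the 4 groups, by limma, a test that called 6.42% of all genes. Without control joint 1 there were 5 members (8.84% of all genes) and without MSC joint 2 there were 7 (11.2%). Without MSC joint 4 there were 3 (6.04%) and without TLR3-MSC joint 1 there were 2 (6.60%). None passed without control joint 3 (4.68%), control joint 4 (4.2%) or STING-MSC joint 2 (7.73%). DESeq2 called 5 members in that test, Edil3, Fmod, Matn2, Mgp and Susd5, and 9.72% of all genes.

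Matn2, a matrilin of tendon, muscle and cartilage matrix, had normalized counts of 901, 2090.1, 3823, 4711 and 1179.8 in control joints 1 to 5 and 763, 706, 685, 796 and 477 in STING-MSC joints. These groups did not overlap either, which fixes the exact permutation p at its smallest value, 0.00794, n = 5 each (log2 fold change -1.63, SE 0.63, unadjusted p = 0.0174, FDR = 0.358 by limma). In all, 2 members (5.13%) were lower without overlap, Matn2 and Edil3, as were 1.24% of all genes. For Edil3 this rested on the near tie given above. MSC joints had 765, 4292, 797, 231 and 1374 and TLR3-MSC joints 1125, 2993, 968, 773 and 3914, with MSC joint 4 below every other joint. Fmod encodes fibromodulin, a leucine-rich proteoglycan that shapes collagen fibrils. Control joints had 6157, 11132, 16982, 25982 and 9854 and STING-MSC joints 3997, 5552, 5665, 6217 and 2968, and only STING-MSC joint 4 lay above the lowest control joint (log2 fold change -1.40, SE 0.54, unadjusted p = 0.0187, FDR = 0.362 by limma). MSC joints had 6349, 31064, 4358, 2182 and 8865 and TLR3-MSC joints 6316, 13589.7, 8541, 6221 and 22378.

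Susd5, a membrane protein with a hyaluronan-binding link domain, had 666, 1711, 3801, 4196 and 951 in control joints and 768, 675, 975, 643 and 603 in STING-MSC joints (log2 fold change -1.29, SE 0.58, unadjusted p = 0.0374, FDR = 0.386 by limma). The groups overlapped, since control joints 1 and 5 lay within the range of the STING-MSC joints, and the exact permutation p, n = 5 each, was 0.0556. Its values were 1128, 3327, 701, 391 and 1029 in MSC joints and 1493, 1658, 505, 547 and 2746 in TLR3-MSC joints. Mgp had 3441, 5551, 10211, 12348 and 4042 in control joints and 4119.9, 3443, 4062, 3459.5 and 3276 in STING-MSC joints (log2 fold change -0.78, SE 0.33, unadjusted p = 0.0281, FDR = 0.374 by limma). Control joints 3 and 4 were the high ones, control joints 1 and 5 lay within the range of the STING-MSC joints, and the exact permutation p with 5 joints a group was 0.0952. MSC joints had 4345, 9008, 4936, 4115 and 4554 and TLR3-MSC joints 5192, 4034, 3129, 4067 and 9213.

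Ptch1, receptor and target of hedgehog signalling, differed by less but varied little between joints. Control joints 1 to 5 had 1215, 1295, 1759, 1938 and 1399, STING-MSC joints 1133, 1105, 1191, 1127 and 1293 and MSC joints 1235, 1435, 1150.2, 939.6 and 1075. It was lower in STING-MSC joints (log2 fold change -0.36, SE 0.15, unadjusted p = 0.0300, FDR = 0.378 by limma) and in MSC joints (log2 fold change -0.37, SE 0.15, unadjusted p = 0.0244, FDR = 0.483 by limma) than in control joints. TLR3-MSC joints had 1747, 1173, 934, 1125 and 1236, with a log2 fold change of -0.30 (95% interval -0.62 to 0.02) that did not pass. STING-MSC joint 5 was above control joint 1, and the other STING-MSC joints were below every control joint. The 3 differences share the same control joints. STING-MSC and MSC joints differed by 0.02 on the log2 scale (95% interval -0.30 to 0.33).

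These calls rested in part on single joints, and with one of them left out they changed. Without control joint 4 only Edil3 passed, beside 5.87% of all genes in that fit, and without control joint 3 only Edil3, Fmod and Matn2 did, beside 7.47%. Without STING-MSC joint 2 there were 4, beside 14.7%. Without control joint 1, or without MSC joint 4, which enters through the shared estimate of spread, 10 members passed, beside 15.7% and 13.5% of all genes, 9 passed without MSC joint 2, beside 14.3%, and 8 without control joint 5 or TLR3-MSC joint 5, beside 14.2% and 12.3%. Without MSC joint 5 and STING-MSC joint 5 together 7.77% of all genes passed and 4 members did, namely Edil3, Matn2 and Ptch1, which were lower, and Cytl1, which was higher. The median log2 fold change over the 39 members was -0.35, against 0.01 over all genes, and it was -0.16 without control joint 4 and -0.23 without control joint 3.

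Comp and Prg4 showed differences of similar size that did not pass by limma. Comp had 13405, 26179, 40629, 50427 and 18627 in control joints 1 to 5 and 15973, 12504, 13543, 16539 and 7248 in STING-MSC joints (log2 fold change -1.07, SE 0.57, unadjusted p = 0.0734, FDR = 0.455 by limma), and the exact permutation p, n = 5 each, was 0.0397. STING-MSC joints 2 and 5 were below every control joint and the other 3 overlapped them. Comp was at 14014, 68357, 10551, 4115 and 21118 in MSC joints and 17385, 28108, 15634, 13661 and 56267 in TLR3-MSC joints. Prg4 had 225611, 237263, 367873, 542072 and 150984 in control joints and 167688, 179083, 121063, 196213 and 40339 in STING-MSC joints (log2 fold change -1.16, SE 0.67, unadjusted p = 0.0981, FDR = 0.499 by limma). DESeq2 called Prg4 (unadjusted p = 0.0370 from its fit over all genes) and edgeR did not. STING-MSC joint 5 was the lowest of its group. MSC joints had 127402, 431063, 176785, 15886 and 302881, with MSC joint 4 the lowest of all 20, and TLR3-MSC joints had 200432, 359058, 285742, 259197 and 397958.

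**Figure D2:**
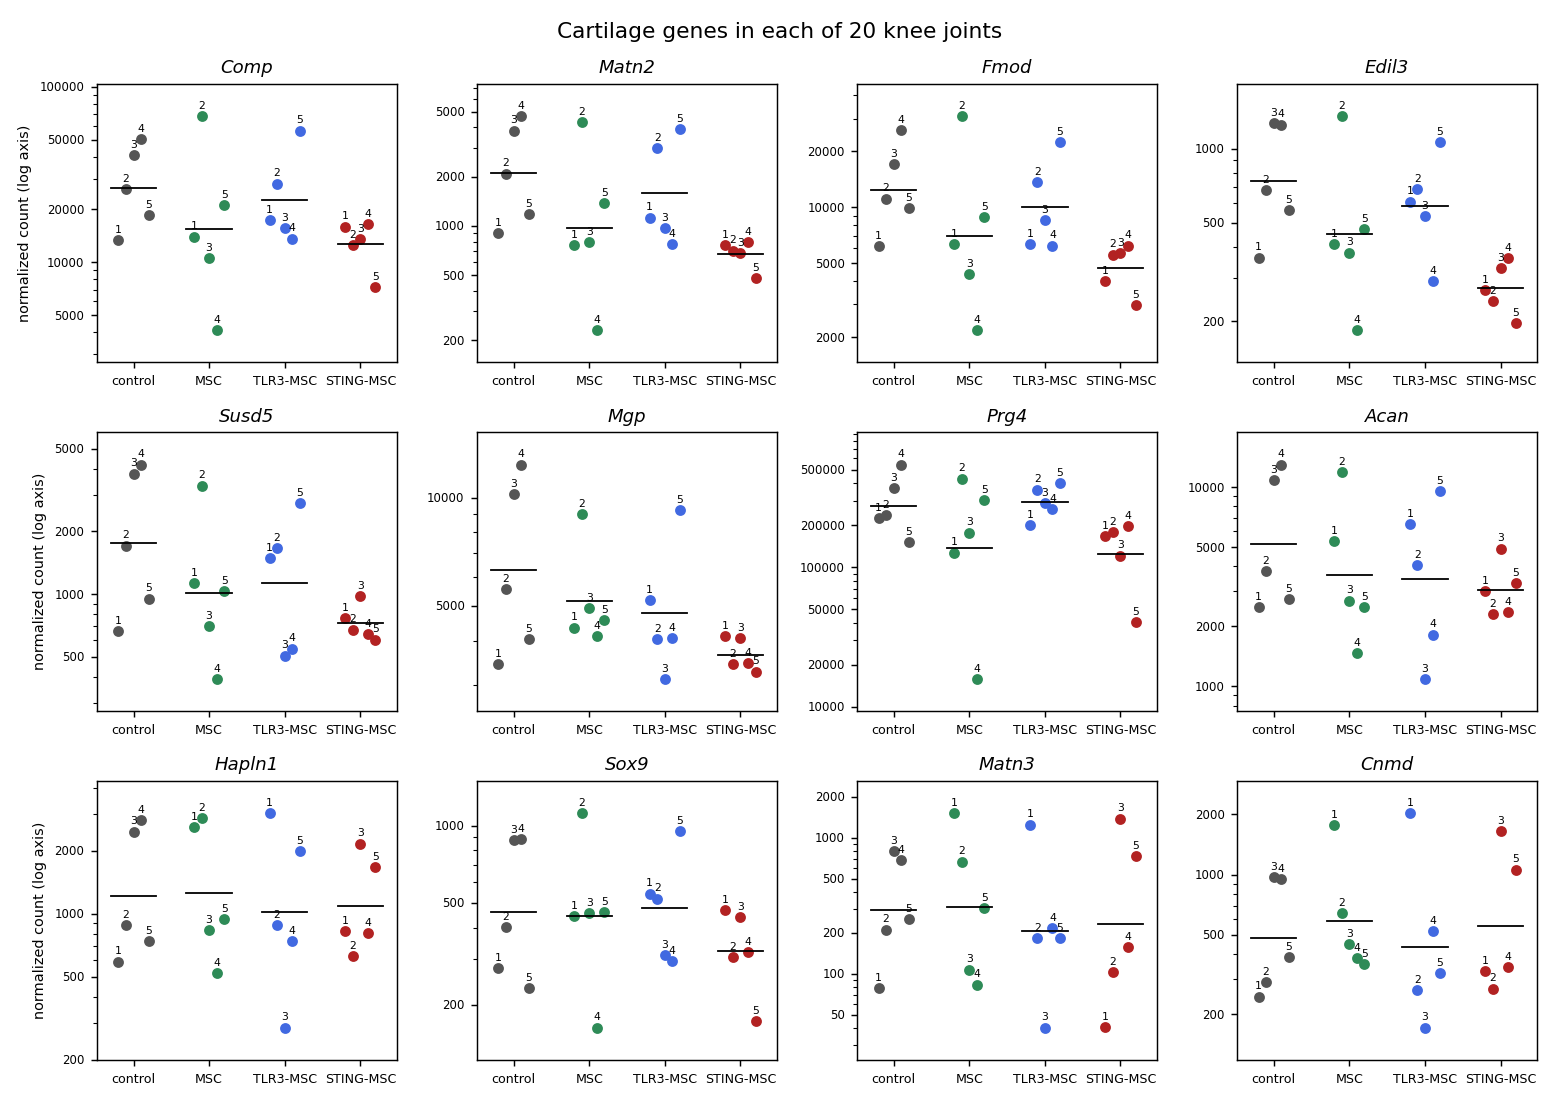
Normalized count (y axis, log scale) of 12 cartilage genes in each of 20 joints, by group (x axis); each point is a joint with its number and the line is the group mean on the log2(normalized count + 1) scale. Edil3 and Matn2 in STING-MSC joints lie below all control joints, Edil3 only by a near tie with control joint 1. In Matn3 and Cnmd each group holds high joints, in TLR3-MSC only joint 1.

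The core of aggrecan and its partners did not pass the limma test in any comparison. Acan had 2506, 3794, 10860.3, 12963 and 2728 in control joints 1 to 5, 5355, 11854, 2690.3, 1469.6 and 2501 in MSC joints, 6525, 4042, 1089, 1815 and 9516 in TLR3-MSC joints and 2999, 2298, 4910.5, 2363 and 3305 in STING-MSC joints. Control joints 3 and 4, MSC joint 2 and TLR3-MSC joint 5 were the high ones. The difference of STING-MSC from control joints in Acan was -0.76 on the log2 scale with a 95% interval of -2.05 to 0.54, which covers both a large fall and a modest rise. Hapln1 had 589, 881, 2471, 2818 and 738 in control joints, 2599, 2859, 836, 519 and 946 in MSC joints, 3021, 883, 284, 741 and 1995 in TLR3-MSC joints and 825, 626, 2166, 805 and 1665 in STING-MSC joints, a difference of -0.17 between STING-MSC and control joints (95% interval -1.48 to 1.15). Snorc, a small membrane proteoglycan, stood at -0.04 and Hapln3 at -0.53 on the same scale.

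Among the other matrilins Matn3 had 78.3, 211, 795, 680.4 and 252 in control joints, 1505, 668, 107, 83.2 and 305 in MSC joints, 1247, 184, 40.2, 218 and 182 in TLR3-MSC joints and 40.6, 103, 1376, 156 and 729 in STING-MSC joints. Each group thus spanned low and high joints, and no difference between groups passed. The log2 fold change of STING-MSC against control joints was -0.35 with a 95% interval of -2.49 to 1.79. Matn4, a matrilin of many connective tissues, stood at -0.25 in that comparison. Of the leucine-rich proteins besides Fmod, Chad, Chadl, which is a chondroadherin-like collagen-binding protein, and Epyc, the growth plate proteoglycan epiphycan, had log2 fold changes of -0.40, 0.11 and 0.27. Of the surface and intermediate layer proteins, Cilp and Cilp2 stood at -0.78 and -1.21 and Crtac1 at 0.42, none of which passed by limma, whereas DESeq2 called Cilp2 (unadjusted p = 0.0373) and Crtac1 (unadjusted p = 0.0412) from its fit over all genes.

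Of the 8 other secreted proteins, 2 passed by limma, Edil3 and Mgp. Fibin, a secreted protein first described in fin and limb development, stood at -1.14 and missed the threshold by limma (unadjusted p = 0.0520), but edgeR (unadjusted p = 0.0447) and DESeq2 (unadjusted p = 0.0255) called it lower. Cytl1 stood at 0.73 (unadjusted p = 0.0973 by limma's fit over all genes). Clec3a, Scrg1, Pcolce2, an enhancer of procollagen processing, and Ucma, a calcification-associated protein of the growth plate, lay between -0.37 and 0.32. Cnmd encodes chondromodulin, an inhibitor of vessel ingrowth. It had 246, 291, 973, 953 and 388 in control joints, 1761, 641, 449, 382 and 358 in MSC joints, 2022, 265, 172, 521 and 321 in TLR3-MSC joints and 328, 269, 1644, 344 and 1059 in STING-MSC joints. MSC joint 1, TLR3-MSC joint 1 and STING-MSC joints 3 and 5 were the highest 4 of the 20, and the difference between STING-MSC and control joints was 0.21 (95% interval -1.16 to 1.58). Panx3 stood at -0.33.

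None of the 4 transcription factor genes passed against control joints by limma, edgeR or DESeq2. Sox9, the master regulator of chondrocytes, had 278, 401, 876, 885 and 233 in control joints, 444, 1116, 457, 162 and 459 in MSC joints, 543, 518, 311, 296 and 953 in TLR3-MSC joints and 468, 307, 440.1, 321 and 173 in STING-MSC joints. Its difference of STING-MSC from control joints was -0.50 (95% interval -1.49 to 0.48). Sox5 stood at -0.58, Trps1, a zinc finger repressor of growth plate maturation, at -0.55 and Sox6 at 0.16 with a narrow interval of -0.15 to 0.47. Ihh, the growth plate hedgehog ligand, had 48.7, 105, 261, 182 and 75.5 in control joints, 137, 162, 131, 61.0 and 63.1 in MSC joints, 216, 87.3, 38.9, 83.9 and 129 in TLR3-MSC joints and 111, 42.8, 188, 122 and 113 in STING-MSC joints, a difference of -0.11 for STING-MSC (95% interval -1.14 to 0.92). Fgfr3, the receptor that restrains growth plate proliferation, stood at -0.28. The sulfate genes Slc26a2, Papss2, which makes the sulfate donor, Chst11 and Chst3, both chondroitin sulfotransferases, stood at -0.10, -0.44, -0.31 and -0.04, none of which passed by limma, whereas DESeq2 called Papss2 (unadjusted p = 0.0474 from its fit over all genes).

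MSC joints and TLR3-MSC joints were also compared with the needle controls, which they share with the STING-MSC comparison. Against control joints, 1 of 39 members (2.56%) passed in MSC joints, Ptch1, which was lower, and 8.55% of all genes did, with 2.91% lower. Leaving out MSC joint 2 raised this to 10 members and 16.7% of all genes, and without control joint 1 there were 4 members and 11.2%. Without any one of MSC joint 5, TLR3-MSC joint 5 or STING-MSC joint 5, 2 members passed, beside 13%, 8.19% and 8.86% of all genes. None passed by limma without control joint 3, control joint 4 or MSC joint 4, beside 7.4%, 5.76% and 6.82%. In TLR3-MSC joints no member passed by limma, against 3.58% of all genes, and edgeR and DESeq2 each called 1 lower, Hapln3, beside 0.777% and 1.21% of all genes. Hapln3, picked out after its values were seen, had 23.3, 25.4, 28.9, 52.1 and 15.6 in control joints and 11.8, 21.0, 17.4, 13.5 and 12.4 in TLR3-MSC joints (log2 fold change -0.81, SE 0.40, unadjusted p = 0.0550, FDR = 1.000 by limma). Without TLR3-MSC joint 1, Panx3 and Ptch1 passed, beside 3.37% of all genes. With MSC joint 5 and STING-MSC joint 5 both left out, 1 member passed in each of the 2 comparisons, beside 13.7% and 4.32% of all genes. The median log2 fold change of the members was -0.25 in MSC joints and -0.22 in TLR3-MSC joints, beside -0.04 and -0.01 over all genes. In each of these 2 comparisons 30 of 39 members lay below 0, and 29 did in STING-MSC joints, while 57.7%, 52.1% and 48.3% of all genes did in MSC, TLR3-MSC and STING-MSC joints. Members varied together over the joints (median r of 0.532 over pairs), so these are not counts of independent genes. No member passed an FDR of 0.05 by limma, edgeR or DESeq2, whereas 0.00676%, 0.101% and 0.73% of all genes did in MSC joints by these tools and 0%, 0% and 0.0203% in TLR3-MSC joints. DESeq2 gave no adjusted p for 3 members in MSC joints, Hapln3, Matn1 and Epyc.

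**Figure D3:**
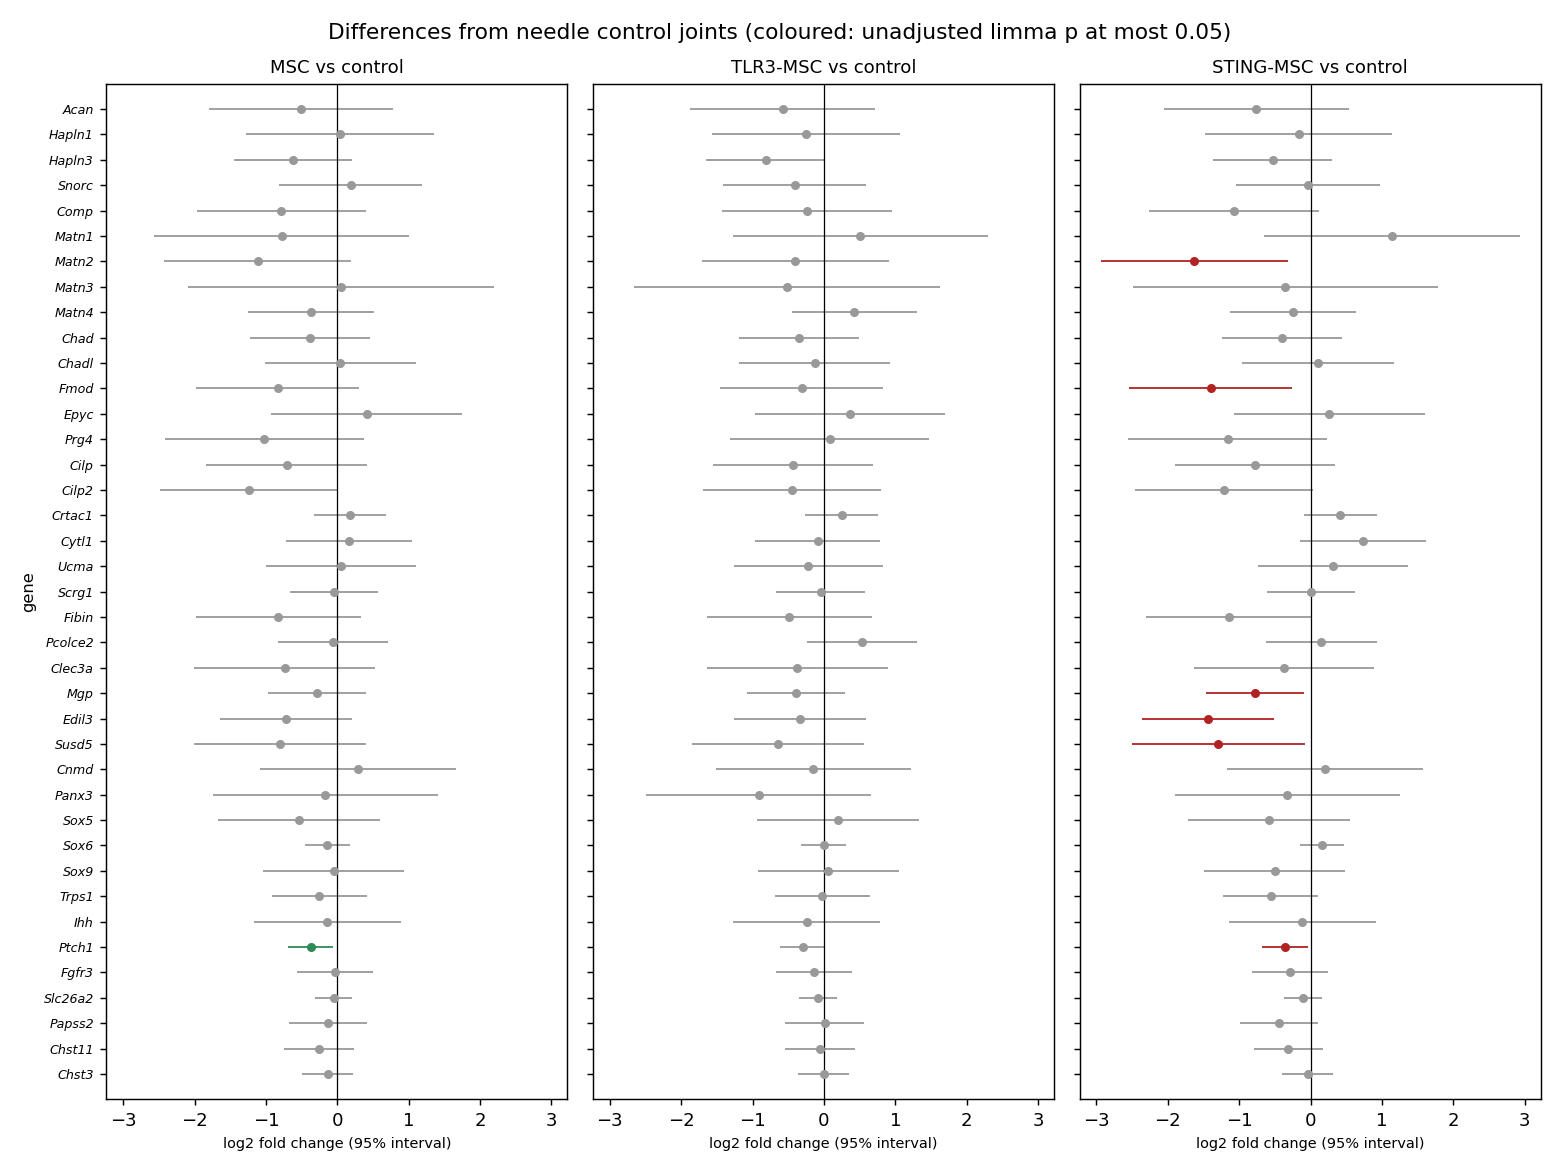
Log2 fold change with 95% interval (x axis) of 39 cartilage genes (y axis) in MSC, TLR3-MSC and STING-MSC joints against the same 5 needle control joints; coloured points have an unadjusted limma p of at most 0.05. 1 gene is coloured for MSC, none for TLR3-MSC and 6 for STING-MSC, all below 0.

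The injected groups were compared with each other to ask what activation of the cells added. Between TLR3-MSC and MSC joints no member passed by limma, edgeR or DESeq2, against 3.88% of all genes by limma. Without MSC joint 2, however, 6 members were higher in TLR3-MSC joints, Cilp2, Comp, Fmod, Matn2, Prg4 and Sox5, 15.4% of the members, and in that fit 6.35% of all genes were higher. Without MSC joint 5 and STING-MSC joint 5 there were 2, Matn4 and Prg4, beside 6.80% of all genes in either direction. Between STING-MSC and MSC joints 1 member (2.56%) passed, Matn1, which was higher, and 4.94% of all genes did, with 2.77% higher. Matn1, the cartilage matrix protein of non-articular cartilage, had 14.1, 0.842, 5.97, 3.30 and 0 in MSC joints and 11.8, 4.89, 39.6, 6.25 and 27.8 in STING-MSC joints, and the groups overlapped (log2 fold change 1.92, SE 0.85, unadjusted p = 0.0370, FDR = 0.938 by limma; exact permutation p = 0.0714, n = 5 each). It had 1.06, 9.67, 3.77, 11.0 and 8.85 in control joints and 53.9, 4.85, 1.34, 13.5 and 5.65 in TLR3-MSC joints. Its value of 0 was in MSC joint 5, the joint with the most genes at 0. No member passed by limma without MSC joint 2 or without MSC joint 5, beside 4.84% and 6.66% of all genes. Without both joints numbered 5 of the MSC and STING-MSC groups 1 passed, beside 8.42%. Without MSC joint 3, MSC joint 4, control joint 5 or TLR3-MSC joints 1 or 5, 2 or 3 passed, fits that called 4.79% to 6.55% of all genes. DESeq2 called Edil3 and Fmod lower (3.07% of all genes) and Matn1 higher (3.19%), while edgeR called Edil3 lower (3.47%).

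Between STING-MSC and TLR3-MSC joints 1 member (2.56%) passed, Edil3, and 2.57% of all genes did, with 1.78% lower. Edil3 was lower in STING-MSC joints (log2 fold change -1.10, SE 0.44, unadjusted p = 0.0220, FDR = 0.890 by limma). Without MSC joint 5 and STING-MSC joint 5, 1 member passed, by limma, beside 1.48% of all genes. With all joints edgeR called 3 lower (3.63% of all genes) and DESeq2 4 lower (3.42%) and 1 higher, Cytl1 (1.15%). The members that were lower in every STING-MSC joint than in every TLR3-MSC joint were Fmod, Prg4, Sox5 and Trps1, 4 of 39 (10.3%) against 1.12% of all genes, and none of them passed by limma. Their log2 fold changes were -1.09, -1.24, -0.78 and -0.53. Groups of 5 that do not overlap always give the smallest exact permutation p, so that p adds nothing to this selection. The separation was narrow in Fmod, with at most 6217 in STING-MSC and at least 6221 in TLR3-MSC joints, and in Trps1, with 1621 and 1640. These genes also varied together, as in Prg4 and Sox5 (r = 0.967 with group means subtracted). Cytl1 had the opposite sign at 0.82 (95% interval -0.06 to 1.70). Leaving out TLR3-MSC joint 5 left no member past the threshold by limma, beside 0.973% of all genes, and control joint 1 left 2, beside 2.5%. Leaving out MSC joint 2, TLR3-MSC joint 1 or TLR3-MSC joint 4 left 3, beside 3.99%, 5.12% and 3.65%. Leaving out MSC joint 4 left 6, beside 4.22%. The median over members was -0.07 for STING-MSC against MSC, -0.10 against TLR3-MSC and 0.11 for TLR3-MSC against MSC. The first turned to 0.04 without MSC joint 1 and 0.18 without MSC joint 2, the second to 0.02 without TLR3-MSC joint 1, and the last to -0.10 without MSC joint 4 and -0.05 without TLR3-MSC joint 5.

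The same joints were high or low in many members at once. Over the 39 members, the median deviation from a member's own mean was 1.01 in control joint 4, 0.85 in control joint 3, 0.77 in MSC joint 2 and 0.52 in TLR3-MSC joint 5, on the log2 scale. It was -1.08 in MSC joint 4, where only 1 member was above its own mean. STING-MSC joints lay between -0.35 and 0.07, the narrowest range of the 4 groups. Control joint 4 had 36 of 39 members above their means and control joint 3 had 35.

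**Figure D4:**
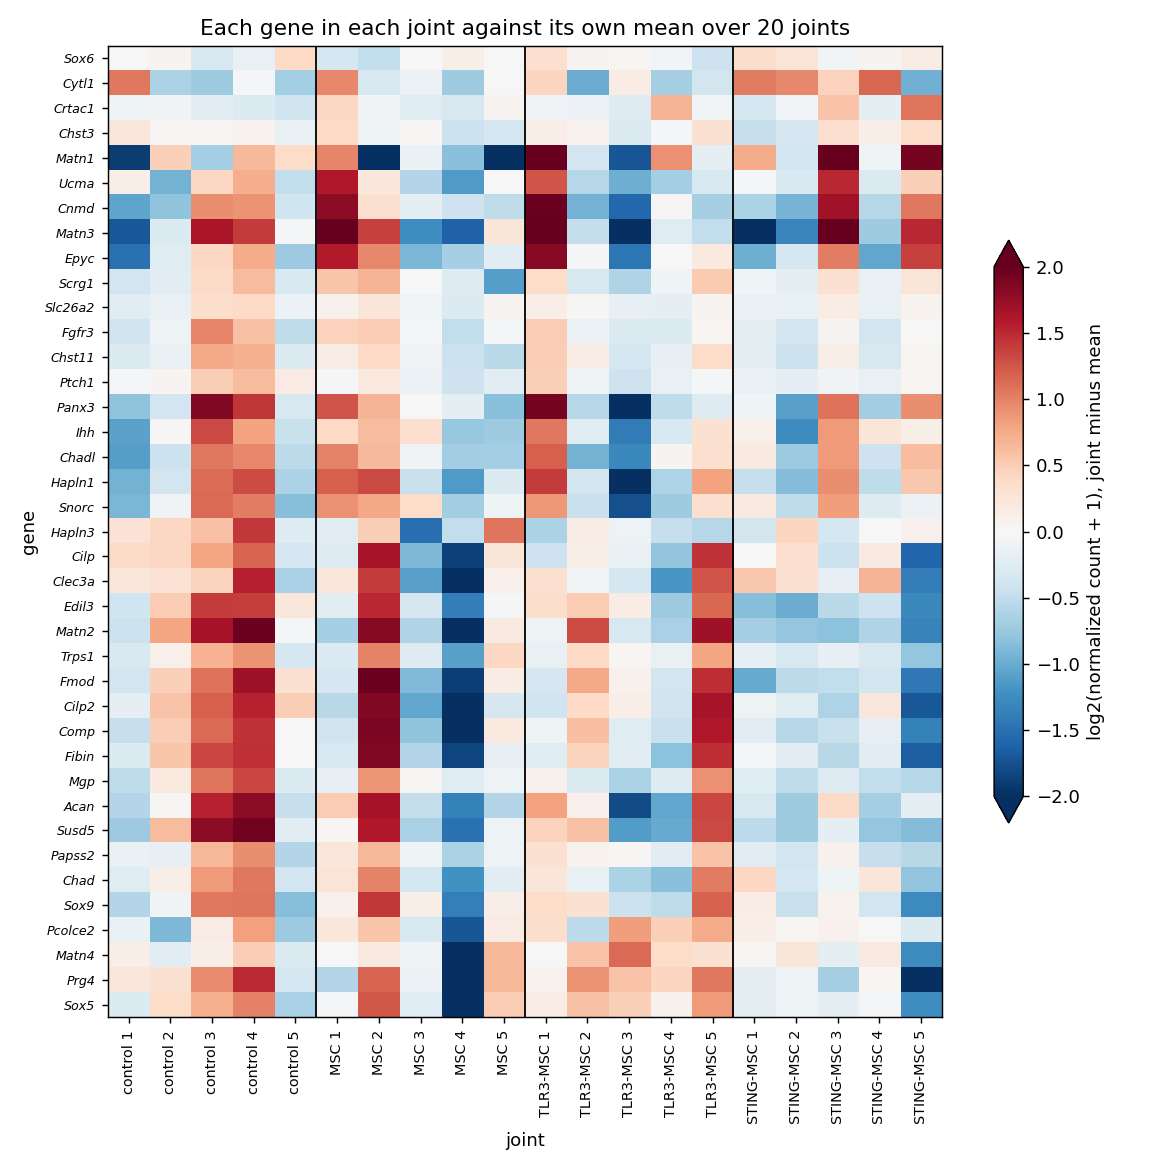
Deviation of 39 cartilage genes (rows, ordered by correlation) from their own mean over 20 joints (columns, by group) on the log2(normalized count + 1) scale; red is above and blue below the mean, with colours ending at 2 to either side. Control joints 3 and 4, MSC joint 2 and TLR3-MSC joint 5 are red in most rows, MSC joint 4 is blue, and MSC joint 1, TLR3-MSC joint 1 and STING-MSC joint 3 are red in the rows around Matn3, Cnmd and Epyc.

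With group means subtracted, 741 pairs of members were correlated over the 20 joints. Pearson's r had a median of 0.532, was above 0.8 in 168 pairs, and 378 pairs had an adjusted permutation p of at most 0.05. The smallest p that 100000 permutations within groups can give was 1e-05. Each joint was a separate block of mixed tissues, and the part of tissue amounts in these correlations was not tested. Comp ran most closely with Fibin (r = 0.977, rho = 0.959, permutation p = 1e-05 and 1e-05, adjusted p = 9.75e-05 and 0.000114, r = 0.960 without the 2 farthest joints) and Matn2 (r = 0.973, rho = 0.955, permutation p = 1e-05 and 1e-05, adjusted p = 9.75e-05 and 0.000114, r = 0.949 without the 2 farthest joints). Fmod, Cilp2 and Trps1 belonged to the same set, with r against Comp of 0.972, 0.971 and 0.962. Prg4 ran most closely with Sox5 (r = 0.967, rho = 0.917, permutation p = 1e-05 and 3e-05, adjusted p = 9.75e-05 and 0.000210, r = 0.928 without the 2 farthest joints).

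A second set followed Matn3. Its r with Epyc was 0.944 and with Cnmd 0.910 (rho = 0.874, permutation p = 1e-05 and 3e-05, adjusted p = 9.75e-05 and 0.000210, r = 0.877 without the 2 farthest joints for Cnmd). Comp and Matn3 themselves were weakly related (r = 0.306, rho = 0.256, permutation p = 0.229 and 0.297, adjusted p = 0.312 and 0.381, r = 0.134 without the 2 farthest joints). Acan stood between the sets and ran most closely with Susd5 at r = 0.948, Hapln1 at 0.935, Chst11 at 0.928 and Snorc at 0.907, each with an adjusted permutation p of 7.6e-05 over 38 members. Sox6 ran against Acan (r = -0.623, rho = -0.561, permutation p = 0.0132 and 0.0255, adjusted p = 0.0167 and 0.0323, r = -0.448 without the 2 farthest joints, MSC joint 2 and TLR3-MSC joint 5). Cytl1 was unrelated to it at r = -0.055 (p = 0.822 by permutation).

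**Figure D5:**
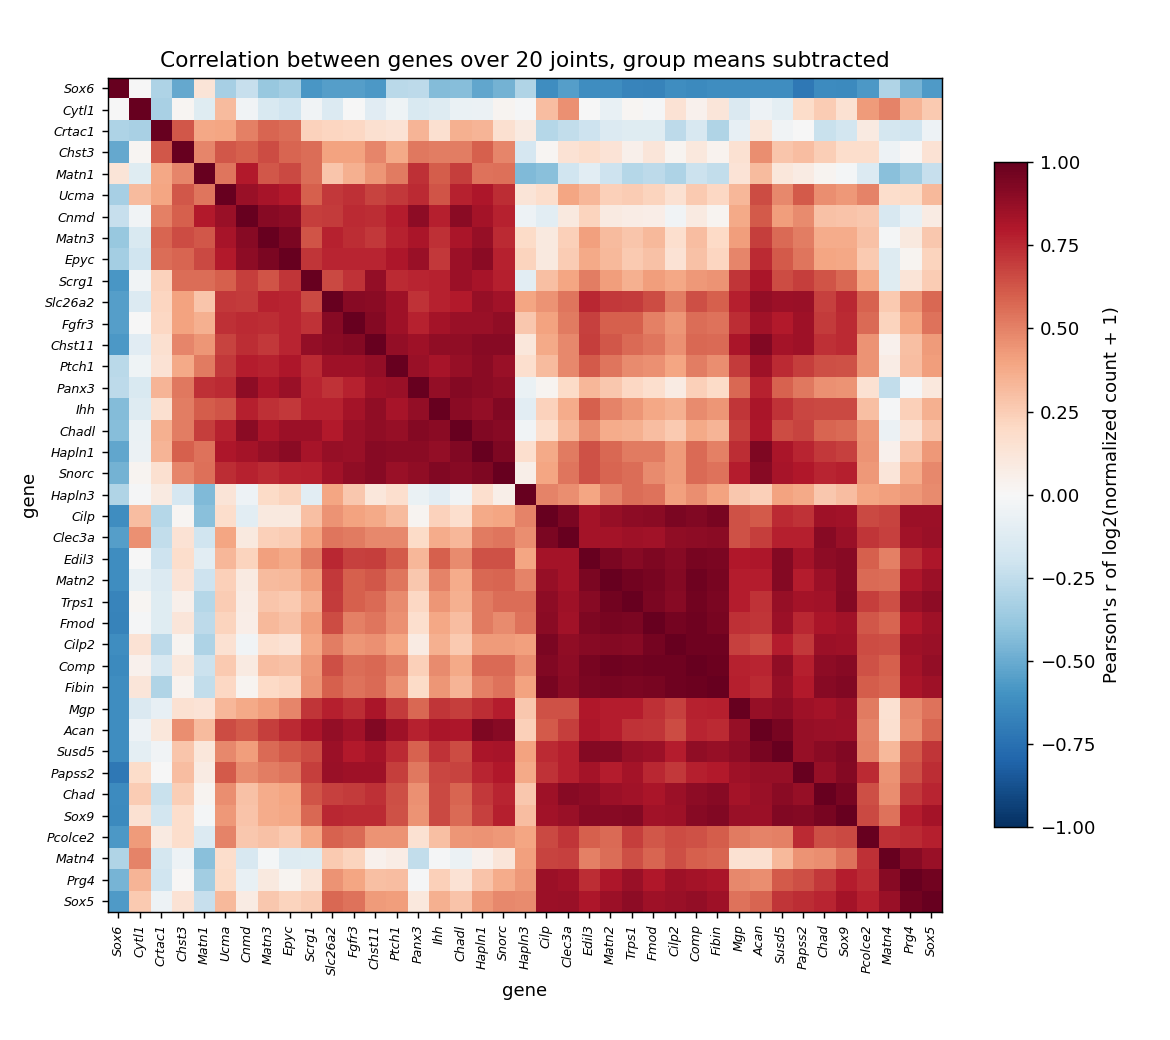
Pearson's r (colour) between 39 cartilage genes (both axes, in the same order) over 20 joints, on log2(normalized count + 1) with group means subtracted. One red block holds Matn3, Cnmd, Epyc, Ihh and Hapln1 and another holds Comp, Fmod, Matn2 and Fibin, and Sox6 is blue against most of the others.

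The promoters of 3 members that stand in these sets are shown, Fmod for the first and Matn3 and Cnmd for the second, because their 250 bases before the RefSeq start contain no exon annotated in GENCODE. The sequences are from RefSeq (GRCm38.p6) and each matched the GRCm39 genome exactly once. They are printed 5′ to 3′ on the gene's strand, in lower case with GC boxes (GGGCGG on either strand, matches may overlap) in capitals.
Fmod promoter, chr1:133964742-133964991, plus strand: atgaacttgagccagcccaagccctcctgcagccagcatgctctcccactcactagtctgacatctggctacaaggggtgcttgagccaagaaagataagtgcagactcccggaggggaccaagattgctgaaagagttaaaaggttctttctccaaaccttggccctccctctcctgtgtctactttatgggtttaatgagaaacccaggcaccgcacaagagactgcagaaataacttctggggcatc
Matn3 promoter, chr12:8997679-8997928, plus strand: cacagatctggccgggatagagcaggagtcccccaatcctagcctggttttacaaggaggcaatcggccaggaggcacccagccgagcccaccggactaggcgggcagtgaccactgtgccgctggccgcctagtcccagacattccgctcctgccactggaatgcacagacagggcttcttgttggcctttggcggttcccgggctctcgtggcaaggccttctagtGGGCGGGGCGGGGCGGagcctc
Cnmd promoter, chr14:79899624-79899873, minus strand: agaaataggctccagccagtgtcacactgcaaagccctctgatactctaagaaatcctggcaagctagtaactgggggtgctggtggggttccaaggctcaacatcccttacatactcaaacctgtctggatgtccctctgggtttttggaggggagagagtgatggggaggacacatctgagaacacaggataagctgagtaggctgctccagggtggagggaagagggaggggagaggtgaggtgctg
The Matn3 window held 3 overlapping GC boxes just before the start, and the Fmod and Cnmd windows held none. Guanine and cytosine made up 51.2%, 65.2% and 54.0% of the bases of Fmod, Matn3 and Cnmd. RefSeq promoters were at hand for 28 of the 40 members, with a median of 59.8% guanine and cytosine, against 52.0% over 27025 genes. A GC box occurred in 15 of these 28 (53.6%) and in 32.9% of all. The SOX core motif ACAAT, on either strand, occurred in 7 of 28 (25.0%), Chadl, Cilp2, Epyc, Hapln1, Hapln3, Ihh and Sox5, and in 28.3% of all, and the TATA box TATAAA in Chad and Hapln3 (7.14%) and in 13.0% of all. The 3 printed windows hold neither of the last 2 motifs.

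The 6 genes lower in STING-MSC joints and Matn1 lie on the following positions of GRCm39, as the deposited table gives them, with the strand taken from GENCODE. Matn2 (ENSMUSG00000022324, chromosome 15, 34306823 to 34436420, plus strand), Fmod (ENSMUSG00000041559, chromosome 1, 133964992 to 133976016, plus strand) and Edil3 (ENSMUSG00000034488, chromosome 13, 88969591 to 89471343, plus strand) were 3 of the 4 that were also at least 2-fold lower. The other one was Susd5 (ENSMUSG00000086596, chromosome 9, 113886208 to 113927797, plus strand). The remaining positions were those of Mgp (ENSMUSG00000030218, chromosome 6, 136849433 to 136852822, minus strand), Ptch1 (ENSMUSG00000021466, chromosome 13, 63656142 to 63721413, minus strand) and Matn1 (ENSMUSG00000040533, chromosome 4, 130671696 to 130682787, plus strand).

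Related genes outside the 40 were read from companion lists. None of 8 cartilage collagen genes passed in any comparison by limma, and their median log2 fold change in STING-MSC against control joints was -0.16. The summed normalized count of these collagens ran from 20868 to 124311 in control joints and from 23091 to 79066 in STING-MSC joints. In STING-MSC against control joints 5.69% of all genes were lower and 6.54% higher, and the counts below stand beside those shares. Of 5 aggrecanase and cartilage protease genes, 4 were lower in STING-MSC than in control joints (median -1.77). These were Adamts4, an aggrecanase, at -1.79, Mmp3 and Mmp13, matrix metalloproteinases, at -1.77 and -0.88, and Htra1, a serine protease, at -1.93. Of 21 genes of chondroitin sulfate synthesis, 3 were lower in STING-MSC joints, Xylt2, Chpf and Slc35d1 at -0.38, -0.91 and -0.22, and Chst13 was higher at 0.52. In MSC joints Chpf2 was lower than in control joints at -0.47. Of 9 hedgehog and PTHrP genes Gli2, a transcription factor of the hedgehog pathway, was lower at -0.83, and of 10 further chondrocyte transcription factors Arid5b, a partner of SOX9, was lower at -0.37. All values are log2 fold changes with an unadjusted limma p of at most 0.05, and the lowest FDR among them was 0.335.

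Markers of other tissues differed between the same groups. All 5 tendon and ligament markers had a log2 fold change below 0 in STING-MSC against control joints (median -1.23), and Tnmd and Thbs4 were lower at -1.46 and -1.86, where 5.69% of all genes were lower. Their summed normalized count was 5723 to 37310.1 in control joints and 2371 to 5704 in STING-MSC joints. These ranges did not overlap, but control joint 1 and STING-MSC joint 2 nearly tied. The sum was 2059.7 to 25671 in MSC and 3864 to 22921 in TLR3-MSC joints. Across the 20 joints, with group means subtracted, the mean of this list had r = 0.916 with Comp and 0.204 with Matn3, a description chosen after the values were seen. The synovial fibroblast list had r = 0.799 with Comp and 0.047 with Matn3, and none of its 8 genes passed in STING-MSC against control joints. Of 8 neutrophil and marrow markers, 6 were higher in STING-MSC joints, as were 6.54% of all genes, with sums of 381579 to 682900 in control and 547331 to 850979 in STING-MSC joints. None of the 8 osteoblast and osteocyte markers passed in that comparison, and of 6 osteoclast markers Ctsk was lower at -0.78. The osteoblast and osteocyte list was the one of 10 tissue lists with an adjusted permutation p of at most 0.05 against Acan (r = 0.818, rho = 0.824, permutation p = 0.0005 and 0.00059, adjusted p = 0.005 and 0.0059, r = 0.793 without the 2 farthest joints). The part of these tissues in the differences between groups was not tested.

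The other marker lists held few calls among the same comparisons. None of the skeletal muscle, erythroid, macrophage, adipocyte or keratinocyte markers passed in STING-MSC against control joints by limma. In MSC against control joints S100a8, S100a9, Camp and Ltf were higher (5.64% of all genes) and Thbs4 was lower (2.91%), and in TLR3-MSC against control joints Pi16, Clic5 and Plin1 were higher (2.68%). Between the injected groups, B3galt6 was higher in TLR3-MSC than in MSC joints (1.89% of all genes). B3gat3, Slc35d1 and Arid5b were lower in STING-MSC than in MSC joints (2.17%). Htra1, Ctsk, Kera, Krt5 and Krt10 were lower in STING-MSC than in TLR3-MSC joints (1.78%). Keratinocyte markers, of which 4 of 6 were found, summed to at most 122 in STING-MSC joints. They reached 4615 in control joint 1 and 17925 in TLR3-MSC joint 4, in groups with medians of 142 and 138.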

How the data were processed

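RNA was extracted from 20 whole mouse knee joints and sequenced after polyA selection. The authors aligned reads with STAR 2.7.3a, counted them per gene with HTSeq and normalized the counts with DESeq2, and the genome named is GRCm39; whether counting used strand is not given in the sources used here. The deposited table holds 1 normalized count signal per gene and joint for 14793 genes, and it has 0 columns of other samples. Because the values are normalized, the unit called for limma (3.58.1, with a trend in the variance) on log2(normalized count + 1), fitted over all 4 groups, in place of DESeq2 as the authors used. A gene passed where its unadjusted p was at most 0.05, and the FDR was adjusted over all genes. The study states its threshold both as a fold change of at least 2 or a p of at most 0.05 and as an FDR of at most 0.05 with that fold change. P-values measure the spread between joints, each from a separate mouse. A minimum mean of 5 removed 0 genes.

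Whole reads were recovered from the steps of the deposited values. Between 98.9% and 99.9% of values per joint lay within 0.05 of a whole read, and all did under a normalized count of 1000. The totals were 27955496 to 52529973 reads per joint. edgeR 4.0.16 and DESeq2 1.42.0 were run on these reads as alternatives. Exact permutation tests of 5 joints against 5 used all 252 splits, were two-sided and cannot go below 0.00794. Levels per kilobase divide the mean by the summed length of annotated exons, for which 14770 gene identifiers matched GENCODE. Scripts used R 4.3.3, Python 3.11.15, scipy 1.17.1 and pandas 2.3.3 and were tested on simulated data.

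The genes and lists were chosen with earlier results of these data known. The genes given by joint were 8 core genes (Acan, Comp, Hapln1, Matn3, Sox9, Prg4, Cnmd and Ihh) and every member that passed by limma in a comparison, and Hapln3 was added after its values were seen. No value was taken from any comparison made by the authors.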

Additional observations from a re-analysis of the deposited data

Results flagged for a closer look

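For 15 genes in 4 groups of 5 joints, which makes 60 sets of values, the highest and the lowest joint were set against the nearest other joint of the group. A gap above 0.71 of the group's range marked a joint as far from the others. Chance marks about 1 in 20 sets of independent, normally distributed values. These sets are counts on a linear scale for genes that vary together over the joints, so that rate does not give the number to be had here. Of the 60 sets, 10 were marked, all at the high end.

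MSC joint 2 was far above the other MSC joints in 6 genes. Its normalized count was 68356.8 in Comp, where the next joint had 21117.6, and 31063.5 in Fmod, where the next had 8864.58. In Matn2 it was 4291.88 against 1374.12, in Susd5 3327.09 against 1127.91, in Edil3 1361.31 against 473.307 and in Mgp 9008.06 against 4935.95.

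TLR3-MSC joint 1 was far above its group in Matn1, at 53.941 against 13.4645, in Matn3, at 1246.54 against 217.503, and in Cnmd, at 2021.95 against 520.972. MSC joint 1 stood out in Cnmd at 1760.56, where the next joint of the group had 640.666.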

How the results depend on the processing

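No result turned its direction past the threshold under any alternative run, but counts of members past p of 0.05 depended on the tool and on single joints. For STING-MSC against control joints the 6 members became 11 when only the groups compared entered the limma fit and 11 by DESeq2. For TLR3-MSC against control joints the count of 0 became 1 with a pseudocount of 5, with quantile scaling, with only the groups compared, by edgeR, by DESeq2 and, in an alternative chosen after seeing the data, without MSC joint 5 and STING-MSC joint 5. That last setting gave 2 for TLR3-MSC against MSC joints, where the count was 0. For STING-MSC against MSC joints the 1 member became 0 with a pseudocount of 5, a minimum mean of 20, quantile scaling or the replicate block, and 3 with only the groups compared or by DESeq2. For STING-MSC against TLR3-MSC joints the 1 became 9 with only the groups compared, 2 with the replicate block, 3 by edgeR and 5 by DESeq2. In the test of any difference the 1 became 5 by DESeq2. The shares of all genes by edgeR, by DESeq2 and without the joints numbered 5 stand with the comparisons above. Shares for the fits with only the groups compared, another pseudocount, a minimum mean of 20, quantile scaling or the replicate block are not given here. The counts under those settings therefore cannot be set against a background.

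With each joint left out in turn, the count against control joints ran from 0 to 10 in MSC, from 0 to 2 in TLR3-MSC and from 1 to 10 in STING-MSC joints, from 0 to 6 for TLR3-MSC against MSC, 0 to 3 for STING-MSC against MSC, 0 to 6 for STING-MSC against TLR3-MSC, and 0 to 7 for any difference. In the same order, the share of all genes called ran from 5.76% to 16.7%, 2.03% to 5.48% and 5.87% to 15.7% against control joints. Between the injected groups it ran from 2.45% to 9.98%, 3.91% to 6.66% and 0.973% to 5.12%, and for any difference from 4.2% to 11.2%. The median log2 fold change of the members ran from -0.42 to -0.05, -0.39 to -0.03 and -0.44 to -0.16 for MSC, TLR3-MSC and STING-MSC against control joints, from -0.10 to 0.30 for TLR3-MSC against MSC, -0.40 to 0.18 for STING-MSC against MSC and -0.37 to 0.02 for STING-MSC against TLR3-MSC. The causes were not tested.

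Joints that share a replicate number come from different mice. The mean correlation of same-numbered joints ran from -0.144 to 0.108 over the 6 comparisons, and single pairs from -0.658 to 0.464, so the numbers showed no consistent pairing. With the replicate block, 5 members passed for STING-MSC and 1 for MSC against control joints, and the share of all genes in that fit is not given here. The width of the intervals, 1.03 to either side on the log2 scale for the median member, limits what could be seen.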
